A study of Sus scrofa with 67 samples.

Results

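Of 25322 pig genes in the count table, 193 (0.762%) moved oppositely in endometrium and ovary between days 0 and 9 of the oestrous cycle. Their change in the oviduct was less than 2-fold. Members were chosen by the ratio of mean CPM (counts divided by the library's total and scaled to the usual CPM unit) on day 9 to that on day 0, with 1 CPM added to each mean. The ratio had to be at least 2 in one of the endometrium and the ovary and at most 0.5 in the other. In the oviduct it had to lie between 0.5 and 2, called level here. With 1 CPM added, genes nearly absent from the oviduct pass this limit too, and 178 of the 193 members passed the expression filter there. The endometrium-up set holds 133 genes (97 with a symbol), higher on day 9 in the endometrium and lower in the ovary, and the endometrium-down set holds 60 genes (43 with a symbol), with the reverse pattern. For comparison, 433 genes passed the same limits in the same direction in both tissues with a level oviduct, and 266 were opposite whatever the oviduct did.

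The samples were RNA-seq libraries of endometrium dissected free of myometrium, of 1 whole ovary and of the ampulla of the oviduct, taken from crossbred Landrace × Yorkshire gilts of 6 to 8 months. Tissues were collected on 7 days, every 3 days from day 0, when oestrus began, up to day 18, with 2 to 4 libraries for each tissue and day and 22 libraries for each tissue. Libraries are named by the number of their column within a tissue and day.

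In the pig, the corpora lutea that form after ovulation fill much of the ovary and secrete progesterone through the luteal phase, and they regress towards the end of the cycle, when follicles grow again. The endometrium responds to progesterone by changing its glands and luminal epithelium from a proliferative to a secretory state, and later releases the prostaglandin that ends luteal life. The same days of the cycle are therefore days of progesterone exposure for the endometrium and days of corpus luteum function for the ovary.

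Library totals were between 8962103 and 13442083 counts, so that 3 counts, taken here as the lowest detectable level, were 0.223 to 0.335 CPM. In the data, 3 libraries of the tissues compared stood apart, the last of them by the members themselves. Ovary library 1 of day 12 held 167 CPM of CYP11A1, the enzyme that starts steroid synthesis from cholesterol, against 5159 to 9045 CPM in the other 3 ovary libraries of that day. Ovary library 1 of day 15 held 245 CPM of FOXJ1 and 52.1 CPM of KRT18, marks of ciliated and of simple epithelium, against at most 22.1 and 4.98 CPM in the other ovary libraries. Endometrium library 2 of day 15 resembled the earlier days for the members, as described below. CYP11A1 stayed at 1.36 to 7.70 CPM in the endometrium.

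Because days 0 and 9 chose the members, their values on those days are a description and were not tested. The median ratio of day 9 to day 0 in the endometrium-up set was 3.04 in the endometrium and 0.352 in the ovary, with 1.16 in the oviduct. In the endometrium-down set it was 0.409, 2.72 and 1.26. Over all genes, 4.22% reached a ratio of at least 2 and 6.39% a ratio of at most 0.5 in the endometrium, and 3.69% and 8.99% did so in the ovary. Just inside the limits stood ENSSSCG00000009468 (2.0003 in endometrium, 0.4977 in ovary) and SOCS1 (0.4998 and 3.104), and just outside stood DDX60 (1.9952 and 0.38) and CD209 (0.5002 and 4.8722). Scaling by library totals shifted the median gene with a mean of at least 1 CPM by -0.31 on the log2 scale in the ovary, by -0.13 in the endometrium and by 0.26 in the oviduct, against -0.05, -0.04 and 0.01 after TMM normalization. With TMM-scaled CPM the rule gave 104 and 79 members in place of 133 and 60, and 139 of the 193 members (72.0%) were still chosen. The median log2 ratio of the endometrium-up set in the oviduct was 0.21 by library totals and -0.01 by TMM. The median ratios of both sets in the endometrium and the ovary kept their signs by either scaling. The rule had chosen both sets by these ratios, so the signs are no check on the scaling.

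**Figure D1:**
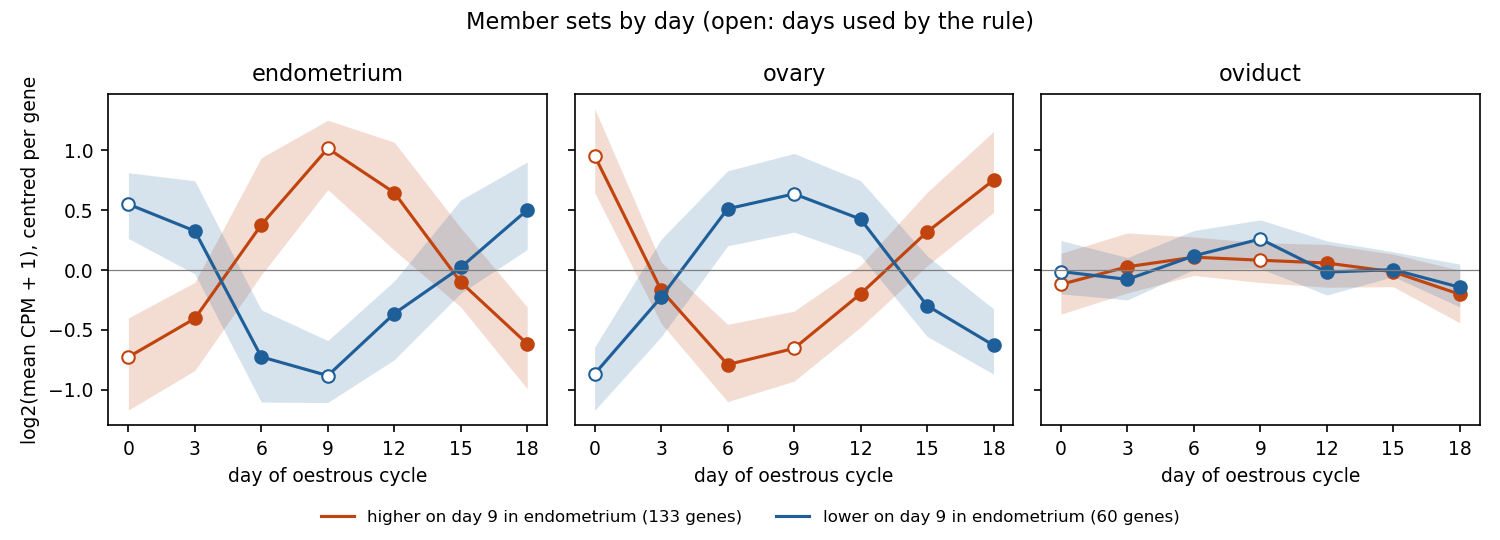
Median (line and points) and quartiles (shading) over the 133 endometrium-up and 60 endometrium-down genes of log2(mean CPM + 1) by day of the oestrous cycle in each tissue, centred on each gene's mean over days 3, 6, 12, 15 and 18. Open points are days 0 and 9, which chose the members. In the endometrium the 133-gene median goes from -0.40 on day 3 to 0.65 on day 12 and -0.62 on day 18, and in the ovary it goes from -0.79 on day 6 to 0.75 on day 18, while the oviduct medians stay between -0.20 and 0.26.

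The 5 days that the rule did not use showed the 2 tissues in opposite phase, as the plot of the 2 sets by day shows. In the endometrium, the mean of the endometrium-up genes was highest on day 12 in 68 of the 132 tested (51.5%, against 20.8% of all 15257 genes tested there) and on day 6 in 44 (33.3%, against 16.0%). It was lowest on day 18 in 64 and on day 3 in 45. In the ovary, the same set was lowest on day 6 in 106 of 132 (80.3%), but 50.2% of all 15409 genes tested in the ovary were lowest on that day too. It was highest on day 18 in 87 (65.9%, against 35.7%). The endometrium-down genes were lowest in the endometrium on day 6 in 37 of 59 (62.7%, against 29.9%), and highest in the ovary on day 6 or day 12 in 24 and 22 of 60 (40% and 36.7%, against 7.73% and 9.16%).

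Whether the opposite movement was larger than the spread between libraries was tested with edgeR's quasi-likelihood test in the libraries of days 3, 6, 12, 15 and 18 alone, with adjusted p-values (Benjamini-Hochberg over all genes tested) called under 0.05. The mean of days 6 and 12 was compared with day 18. In the endometrium, 67 of 132 tested endometrium-up genes were higher on days 6 and 12 and 0 were lower, against 8.59% of all genes called higher. Their median log2 FC was 1.38, against -0.01 for all genes. Of the endometrium-down genes, 30 of 59 were lower and 0 higher, against 9.67% of all genes called lower, with a median log2 FC of -1.07. Without 1 of the day 18 libraries the 97 calls of both sets fell to 61 (library 1), 50 (library 2) or 40 (library 3), and those of all genes from 18.3% to 9.14%, 9.17% or 6.44%.

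In the ovary, 41 of 132 tested endometrium-up genes were lower on days 6 and 12 than on day 18 and 0 were higher, against 5.76% of all genes called lower, with a median log2 FC of -1.52. Of the endometrium-down genes, 13 of 60 were higher and 0 lower, against 5.45%, with a median log2 FC of 1.52. The same bulk tissue can show less of an RNA because it holds fewer cells of a type or because each cell holds less of it, and these cannot be told apart here. The 54 ovarian calls rested on few libraries. They became 107 without library 1 of day 12 (27.4% of all genes called, against 11.2% with every library), 45 without library 2 of day 18 (7.85%), and 0 by edgeR without any 1 of the other 8 libraries compared, where 0% of all genes were called. In those fits 74 to 108 members had an unadjusted p under 0.05, against 113 with every library. With every library DESeq2 called 89, and 19.7% of all genes. With the library number as a block edgeR called 0 members and 0% of all genes, with 103 members at an unadjusted p under 0.05.

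**Figure D2:**
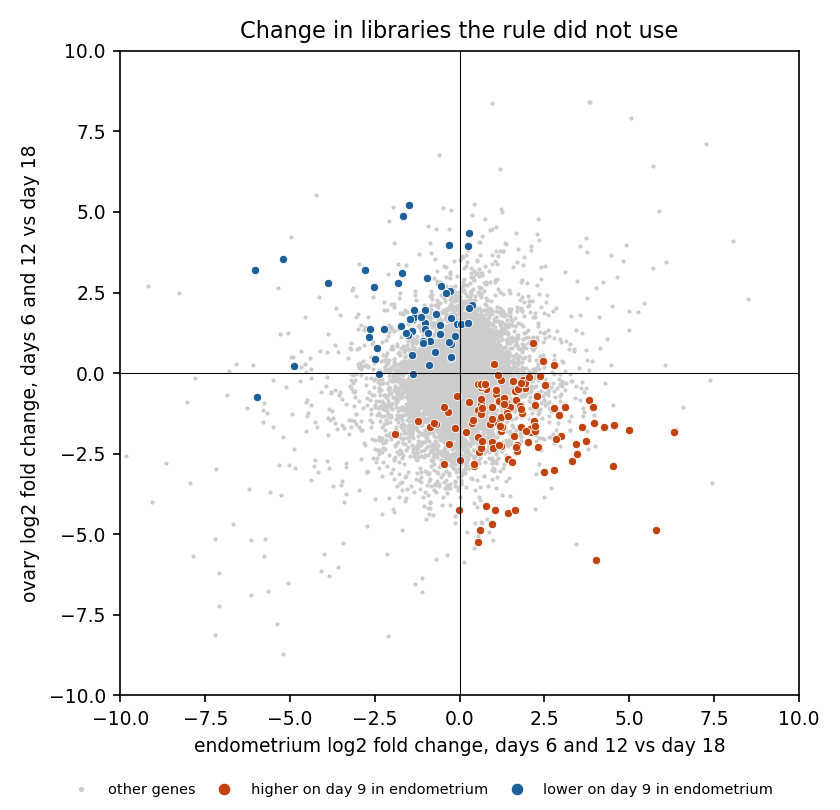
Log2 fold change of the mean of days 6 and 12 against day 18 in the endometrium (x axis) and in the ovary (y axis), for genes tested in both tissues, in libraries that the rule did not use. Endometrium-up genes (orange) lie mostly in the lower right and endometrium-down genes (blue) in the upper left: 165 of the 190 members tested in both tissues have opposite signs, against 45.7% of all 14449 genes (grey and coloured).

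The signs of the 2 tissues were opposite in 115 of 131 endometrium-up genes and 50 of 59 endometrium-down genes tested in both tissues, or 86.8% of the 190, where 45.7% of all genes had opposite signs. Called in both tissues, in opposite directions, were 26 members (13.7% of the 190), against 78 of all 14449 genes (0.54%). The difference between the tissues was itself tested as an interaction, the change in the endometrium minus that in the ovary. It was called higher in 77 of the 133 endometrium-up genes, against 5.11% of all genes, and lower in 36 of the 60 endometrium-down genes, against 5.7%. The median difference was 2.76 and -2.90 on the log2 scale. The calls ranged from 75 to 143 when 1 library was left out. They were 148 when the 2 ovary libraries that stood apart were both left out, a choice made after seeing the data. The tissues of a day came from the same gilts, and this test took the libraries as independent. With same-numbered endometrium and ovary libraries of a day as a block, 74 members were called (44 endometrium-up and 30 endometrium-down), against 5.42% of all genes.

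Each of the 2 days was also taken alone against day 18. In the endometrium on day 6, 56 endometrium-up genes were higher and 5 lower (8.8% and 9.05% of all genes), and 32 endometrium-down genes were lower. On day 12, 60 endometrium-up genes were higher (7.1%), and of the endometrium-down genes 15 were lower (6%) and 1 was higher. In the ovary on day 6, 20 endometrium-up genes were lower (2.06%) and 9 endometrium-down genes higher (3.64%), and on day 12 edgeR called 0 members and 0% of all genes, with 83 members (43.2%) and 21.5% of all genes at an unadjusted p under 0.05. The median log2 FC in the ovary was -1.83 on day 6 and -0.99 on day 12 for the endometrium-up genes, and 1.69 and 1.51 for the endometrium-down genes. For the difference between the tissues, 64 endometrium-up genes were called higher (4.18%) and 34 endometrium-down genes lower (5.03%) on day 6, with 9.21% of all genes called in either direction. On day 12 these were 45 (2.03%) and 20 (1.88%).

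The oviduct was chosen to be level only between days 0 and 9. Between days 6 and 12 and day 18 it had 13 calls, of which 3 were higher and 6 lower among 121 tested endometrium-up genes and 1 higher and 3 lower among 57 endometrium-down genes, against 4.81% of all genes called higher, 11.4% called lower and 16.2% called in either direction. The endometrium-up median was 0.19 and the endometrium-down median 0.08 on the log2 scale. On day 12 alone, 6 endometrium-up genes were higher and 6 lower in the oviduct, and 1 endometrium-down gene was higher and 6 lower (5.83% and 9.53% of all genes). The 13 calls fell to 0 without either library of day 6 or without library 2 of day 18, where at most 2 of all genes were called.

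**Figure D3:**
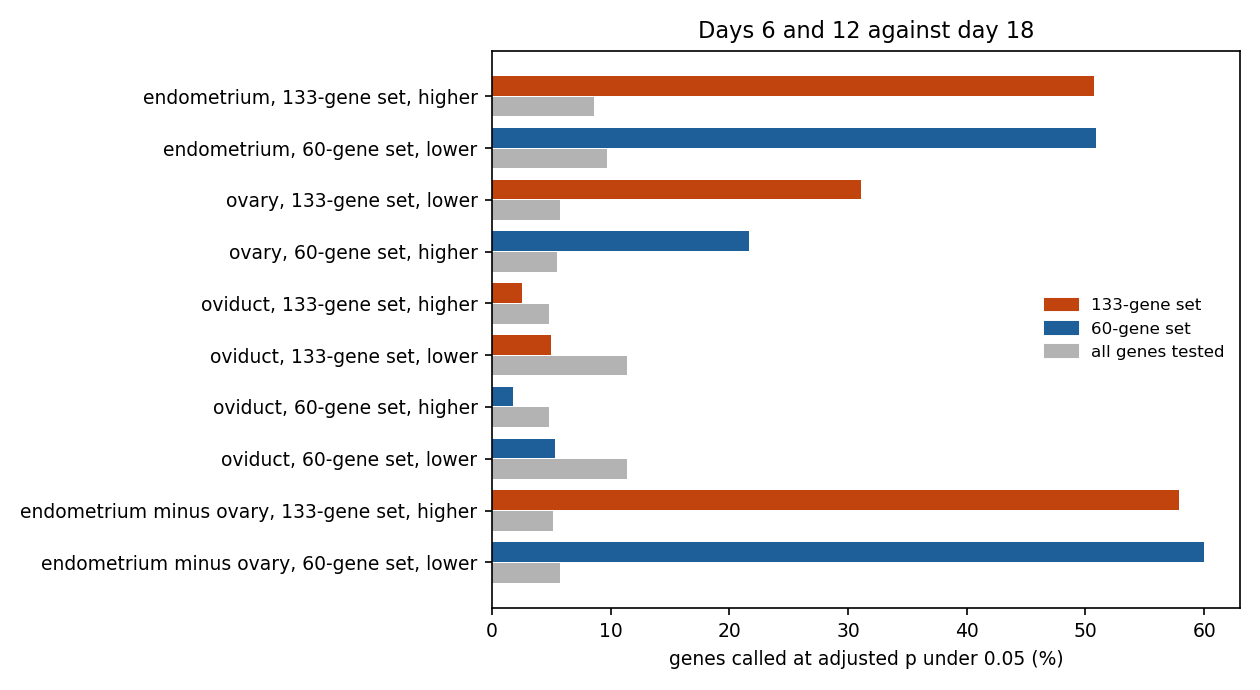
Percentage of tested genes called at an adjusted p under 0.05 (edgeR, days 6 and 12 against day 18) in the 133-gene endometrium-up set (orange), the 60-gene endometrium-down set (blue) and all genes tested (grey), by tissue and direction, with the difference between the tissues in the bottom pair. Member bars stand at 50.8% in the endometrium and at 57.9% and 60% for the difference, and in the oviduct they stand below the grey bars.

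In the endometrium between days 3 and 6, 47 endometrium-up genes were higher on day 6 and 4 were lower (6.69% of all genes were higher), and 18 endometrium-down genes were lower (7.73%). In the ovary and in the oviduct edgeR called 0 members and 0% of all genes for that step, and DESeq2 called 0 members in both. An unadjusted p under 0.05 was found for 21 ovary members (10.9%, against 4.99% of all genes) and 16 oviduct members (8.99%, against 5.92%). The median log2 FC of the endometrium-down genes was 1.02 in the ovary and -1.04 in the endometrium, and that of the endometrium-up genes was -0.47 and 1.26. Between days 12 and 15, edgeR called 0 members in any tissue and 0% of all genes. An unadjusted p under 0.05 was found for 57 endometrium members (29.8%, against 23.6% of all genes), 55 ovary members (28.6%, against 18.4%) and 24 oviduct members (13.5%, against 11.3%). DESeq2 called 23, 24 and 1 members, against 8.44%, 5.71% and 0.536% of all genes. This step depended on single libraries. Without library 2 of day 15 the endometrium had 85 members called of 191, against 23.4% of all genes, and without library 1 of day 12 the ovary had 37 of 189, against 12.0% of all genes.

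Those 2 libraries ran against the other libraries of their day across the members. Endometrium library 2 of day 15 was the highest of the 4 libraries in 99 of the 133 endometrium-up genes and the lowest in 39 of the 60 endometrium-down genes. Ovary library 1 of day 12 was the highest of its 4 in 105 of the 133 and the lowest in 50 of the 60. Medians over the endometrium-up set, as centred log2(CPM + 1), were 0.91 in the first of these against -0.72 to -0.38 in the other libraries of the day, and 0.55 in the second against -0.65 to -0.48.

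The endometrium-up genes with the largest movement on days 0 and 9 included enzymes and carriers of lipids. SLC27A6 (ENSSSCG00000014257), a fatty acid transport protein, had 240.2, 289 and 304 CPM in the endometrium on day 6 and 88.1, 111 and 7.08 CPM on day 12, against 1.28, 1.49 and 2.61 CPM on day 18. All 6 libraries of days 6 and 12 lay above day 18, and the log2 FC was 6.33 ± 1.52 (SE; adjusted p = 0.0137). In the ovary it was between 0.158 and 3.99 CPM on days 6 and 12 and at 1.34, 2.15 and 12.2 CPM on day 18, so the groups overlapped and the difference was not called (adjusted p = 0.125). The difference between the tissues was called, at 8.12 ± 1.64 (adjusted p = 0.00547).

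CDS1 (ENSSSCG00000009231), which makes CDP-diacylglycerol for phospholipid synthesis, had 91.7, 155 and 105 CPM on day 6, 38.3, 58.7 and 52.2 CPM on day 12 and 32.8, 24.8 and 25.1 CPM on day 18 in the endometrium. Its ovarian libraries had between 0.396 and 1.71 CPM on days 6 and 12 and at 5.73, 2.52 and 10.4 CPM on day 18. Neither tissue's groups overlapped, and both changes were called, with a log2 FC of 1.55 ± 0.22 in the endometrium (adjusted p = 0.00239) and of -2.77 ± 0.65 in the ovary (adjusted p = 0.0309). SGMS2, a sphingomyelin synthase, did not follow. Its endometrial libraries had 135, 27.5 and 57.7 CPM on day 18 and 39.0 to 109 CPM on days 6 and 12, with a log2 FC of -0.30 ± 0.41 (adjusted p = 0.645).

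NPL (ENSSSCG00000022292), which breaks down sialic acid, had 11.3, 18.9 and 39.1 CPM in the endometrium on day 6, 26.3, 34.0 and 13.2 CPM on day 12 and 3.63, 5.09 and 4.61 CPM on day 18. Ovarian NPL was between 2.28 and 6.43 CPM on days 6 and 12, and at 24.0, 3.64 and 88.7 CPM on day 18. The endometrial groups were apart, while ovary library 2 of day 18 lay within the range of days 6 and 12. Both changes were called, at 2.50 ± 0.56 (adjusted p = 0.0103) and -3.07 ± 0.84 (adjusted p = 0.0385). NCF1, a cytosolic subunit of the phagocyte NADPH oxidase, rose in the endometrium (log2 FC 2.98 ± 0.54, adjusted p = 0.00402) with 44.9, 298 and 214 CPM on day 6 and 7.25 to 9.47 CPM on day 18. Ovarian NCF1 was at 1.51 to 7.01 CPM on days 6 and 12 and 11.9, 5.51 and 29.7 CPM on day 18 (adjusted p = 0.0551).

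Among genes of excitable cells, JPH4, a junctophilin that holds the endoplasmic reticulum close to the plasma membrane, had 313, 605 and 1323 CPM on day 6 and 828, 2117 and 968 CPM on day 12 in the endometrium, against 27.0, 31.0 and 41.8 CPM on day 18. The groups were apart and the change was called (log2 FC 4.99 ± 1.37, adjusted p = 0.0236). On day 15 it had 1519 CPM in endometrium library 2 and 13.6 to 52.0 CPM in the other 3. In the ovary 6 of the 7 libraries of days 6 and 12 had 0.733 to 2.27 CPM, below 3.79, 24.6 and 14.8 CPM on day 18, but library 1 of day 12 had 36.2 CPM and the change was not called (adjusted p = 0.262).

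KCNQ5, a voltage-gated potassium channel, was called in both tissues. It had 3.51 to 7.68 CPM on days 6 and 12 in the endometrium and 0.213, 0.614 and 0.610 CPM on day 18, and 0 to 1.95 CPM against 6.10, 2.71 and 4.09 CPM in the ovary, with no overlap in either. BDNF, a neurotrophin, was a low-count member called in both. In the endometrium it had 2.11, 2.96 and 13.7 CPM on day 6, 1.30, 5.44 and 0.454 CPM on day 12 and at most 0.107 CPM on day 18 (adjusted p = 0.0138). Ovarian BDNF was at most 0.317 CPM on days 6 and 12 and 9.22, 2.43 and 6.04 CPM on day 18 (adjusted p = 0.0309). Its low groups lay near or under 3 counts, so its fitted fold depends on the prior count and is no measure of size, and in the oviduct it had 0 counts in 21 of 22 libraries and 0.261 CPM in the other.

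SLC31A2 (ENSSSCG00000023714), related to the copper transporters, was called in both tissues as well. Its endometrial libraries had 394, 416 and 134 CPM on day 6, 133, 87.2 and 103 CPM on day 12 and 23.5, 35.6 and 23.7 CPM on day 18, and on day 15 they had 196 CPM in library 2 and 35.02 to 54.6 CPM in the others. In the ovary days 6 and 12 spanned 3.46 to 10.9 CPM and day 18 was at 21.0, 10.3 and 42.1 CPM, so that only ovary library 1 of day 12, at 10.9 CPM, exceeded the lowest library of day 18. The log2 FC was 2.83 ± 0.55 in the endometrium (adjusted p = 0.00562) and -2.03 ± 0.45 in the ovary (adjusted p = 0.0309). STRIP2, a partner of striatin, was called in the endometrium (1.63 ± 0.44, adjusted p = 0.0214) and not in the ovary (-0.54 ± 0.50, adjusted p = 0.496), where 40.3 CPM in library 3 of day 18 stood above 3.79 to 24.0 CPM on days 6 and 12.

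**Figure D4:**
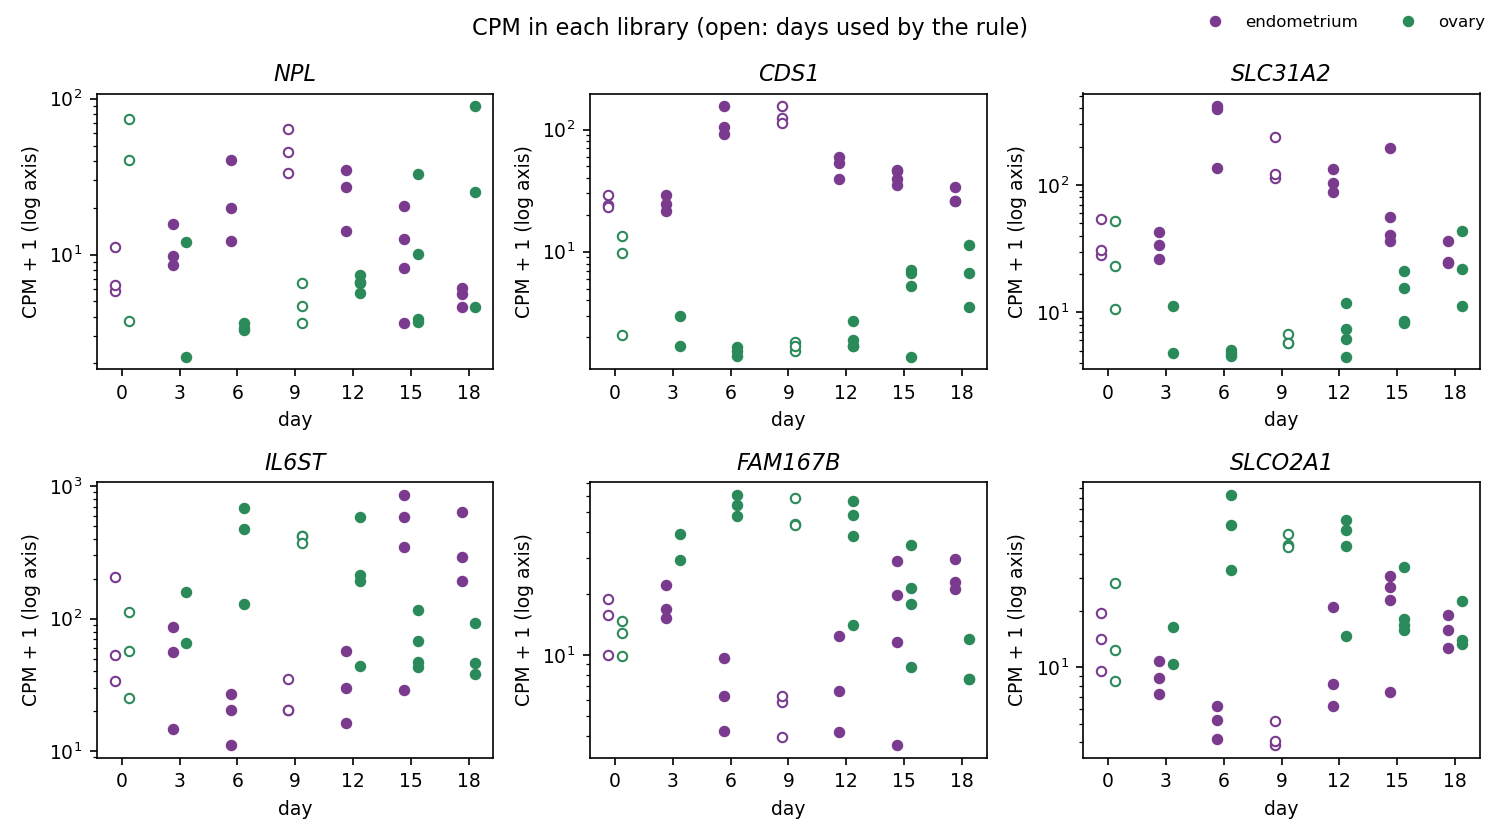
CPM + 1 (log axis) in each endometrium (purple) and ovary (green) library by day for 3 endometrium-up genes (top row: NPL, CDS1, SLC31A2) and 3 endometrium-down genes (bottom row: IL6ST, FAM167B, SLCO2A1), with open circles for days 0 and 9, which chose the members. CDS1 stands between 38.3 and 155 CPM in the endometrium and between 0.396 and 1.71 CPM in the ovary on days 6 and 12, and IL6ST in the ovary on day 12 has 1 library (42.6 CPM) below the other 3 (192 to 587 CPM).

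In the endometrium-down set, the cytokine receptor subunit IL6ST (ENSSSCG00000016916), through which interleukin 6 and leukaemia inhibitory factor signal, had 19.5, 25.9 and 10.1 CPM in the endometrium on day 6 and 55.6, 28.8 and 15.2 CPM on day 12, against 643, 190.3 and 291 CPM on day 18. On day 15, 3 libraries already had 347 to 864 CPM, while library 2 had 28.1 CPM. In the ovary it had 128, 476 and 686 CPM on day 6 and 42.6, 192, 212 and 587 CPM on day 12, against 91.3, 44.9 and 37.4 CPM on day 18. The endometrial fall was called (log2 FC -3.88 ± 0.75, adjusted p = 0.00542), the ovarian difference narrowly was not (2.80 ± 0.86, adjusted p = 0.0505), and the difference between tissues was -6.72 ± 1.27 (adjusted p = 0.00379). SOCS1, which dampens cytokine signalling and lay at the edge of the rule, fell in the endometrium (log2 FC -2.49) and was not called in the ovary (0.43). It was named after its values were seen.

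SLCO2A1 (ENSSSCG00000011641), the prostaglandin transporter, was the only member matched by symbol to any of the 6 pathway lists used here. Only 140 of the 193 members had a symbol, and some listed genes were not named in the table. SLCO2A1 had 31.9, 82.5 and 56.5 CPM in the ovary on day 6, 13.7, 52.8, 59.7 and 43.3 CPM on day 12 and 21.7, 13.1 and 12.4 CPM on day 18. Only ovary library 1 of day 12 lay within the day 18 range, and the rise was called (log2 FC 1.95 ± 0.57, adjusted p = 0.0463). In the endometrium it had 3.14 to 5.26 CPM on day 6, 5.27, 7.15 and 19.97 CPM on day 12 and 11.7, 18.0 and 14.8 CPM on day 18, where the groups overlapped through library 3 of day 12 (-1.02 ± 0.45, adjusted p = 0.128).

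FAM167B and ENSSSCG00000025714 were called in both tissues. FAM167B had 3.20 to 11.3 CPM on days 6 and 12 in the endometrium against 28.7, 20 and 21.7 CPM on day 18, and 13.1 to 60.2 CPM against 10.9, 6.63 and 6.58 CPM in the ovary, with no overlap in either (log2 FC -1.82 ± 0.54 and 2.80 ± 0.56). It was also called lower in the oviduct on days 6 and 12 (-2.57 ± 0.59, adjusted p = 0.0164). ENSSSCG00000025714, which has no symbol in the tables used, had 42.2 to 101 CPM in the endometrium against 129.6, 262 and 225 CPM, and in the ovary 45.7, 79.5 and 116 CPM on day 6 and 1.46, 106, 44.3 and 164 CPM on day 12 against 1.77 to 3.38 CPM. Library 1 of day 12 was the exception in the ovary (log2 FC 5.21 ± 1.25, adjusted p = 0.0315).

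CA2, a carbonic anhydrase, had 5.08 to 9.08 CPM on day 6 and 133, 93.7 and 73.7 CPM on day 18 in the endometrium (days 6 and 12 against 18: log2 FC -2.68 ± 0.70, adjusted p = 0.0191). Day 12 was less low than day 6. The mean over days 6 and 12 was 18.7 CPM, and the largest count of those days, 696, was in a day 12 library. In the ovary CA2 had 10.6 to 22.1 CPM on day 6 and 14.4, 5.32 and 1.42 CPM on day 18, which overlapped (adjusted p = 0.409). L1CAM, a cell adhesion molecule, fell in the endometrium (-0.96 ± 0.30, adjusted p = 0.0383), and had 39.4 to 51.3 CPM in the ovary on day 6 and 109, 179 and 62.3 CPM in libraries 2, 3 and 4 of day 12, against 7.28 to 12.3 CPM on day 18 and 10.03 CPM in library 1 of day 12 (2.96 ± 0.98, adjusted p = 0.0633). HPSE, which cleaves heparan sulphate, the sulphate transporter SLC13A1 and the kinase RPS6KA6 were called in neither tissue, with log2 FCs of -0.88, -1.15 and -0.69 in the endometrium and of 0.99, 1.73 and 1.85 in the ovary. In the oviduct SLC13A1 was called higher on days 6 and 12 than on day 18 (log2 FC 0.66).

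The members without a symbol behaved unevenly. ENSSSCG00000024545 fell in the endometrium (12.4 to 21.9 CPM on day 18 against 0.107 to 0.908 CPM on days 6 and 12), and in the ovary had 8.38 to 19.3 CPM on days 6 and 12 outside library 1 of day 12 (1.07 CPM), against 0.467 to 2.31 CPM on day 18 (adjusted p = 0.0711). ENSSSCG00000009996 fell strongly in the endometrium (48.4 to 89.4 CPM on day 18, 0.105 to 5.45 CPM on days 6 and 12), but its ovarian day 18 libraries had 68.9, 1.49 and 0.711 CPM and its log2 FC there was -0.74 ± 1.27 (adjusted p = 0.73), the same sign as in the endometrium. ENSSSCG00000013665 was called in both tissues at low counts, with at most 0.211 CPM on days 6 and 12 in the endometrium against 4.16, 6.84 and 5.14 CPM on day 18. In the ovary its mean was 3.08 CPM over days 6 and 12 and 0.356 CPM on day 18. On day 12, ovary library 4 had 4.80 CPM, while the others had 0.342 to 0.487 CPM, near the day 18 mean. Of the endometrium-up members, ENSSSCG00000004520 was called only in the ovary (-2.83 ± 0.61, adjusted p = 0.0309) and had 8.11, 83.9 and 100.3 CPM in the endometrium on day 18, and ENSSSCG00000012202 was called in neither tissue, though its difference between the tissues was (2.60 ± 0.80, adjusted p = 0.0377). In the oviduct ENSSSCG00000012202 was called lower on days 6 and 12 than on day 18.

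Of the 12 endometrium-up genes described by the ranking, 9 were called in the endometrium, 6 in the ovary and 10 for the difference between the tissues. Of the 12 endometrium-down genes, these counts were 8, 4 and 9. The ranking used the size of the movement on days 0 and 9. In the direction of the endometrium-up genes, 8.59%, 5.76% and 5.11% of all genes were called, and 50.8%, 31.1% and 57.9% of that set. In the direction of the endometrium-down genes, these were 9.67%, 5.45% and 5.7% of all genes, and 50.8%, 21.7% and 60% of that set.

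Some gene families recurred among the members and were picked out after the members were seen, so their counts carry no test. Solute carriers made up 11 of the 97 named endometrium-up genes (11.3%), where 2.41% of the 11804 named genes in the table were solute carriers. In the endometrium 6 of these 11 were called higher on days 6 and 12 (SLC27A6, SLC31A2, SLC18A2, SLC6A15, SLC6A6 and SLC7A3), in the ovary 3 of 10 tested were called lower (SLC31A2, SLC4A7 and SLC2A6), and 10 of 11 were called for the difference between the tissues. In that order, 8.59%, 5.76% and 5.11% of all genes were called in the same direction. Of the endometrium-up genes tested, 50.8%, 31.1% and 57.9% were. The 11 solute carriers carry unlike substrates. SLC7A3 moves cationic amino acids, and had 12.6, 52.8 and 21.9 CPM in the endometrium on day 6, at most 1.92 CPM on day 12 and 0.0877 to 0.320 CPM on day 18. SLC23A1, a vitamin C transporter, reached 1005, 325 and 227 CPM on day 12 and was at 56.3 to 95.2 CPM on day 18 (log2 FC 1.77 ± 0.67, adjusted p = 0.0781). The vesicular monoamine transporter SLC18A2 had 11.4 to 86.4 CPM on days 6 and 12 and 2.63 to 7.04 CPM on day 18.

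Genes of the interferon response (IFIT1, MX1 and the RNA sensor DHX58) and the epithelial interferon IFNE were in the endometrium-up set, as 4 of its 97 named genes (4.12%). These genes, and the symbols that define their group, were picked out after the members were seen. The 7 genes that the table named by those symbols or families are therefore no background for this share. None of the 4 was called in the endometrium by edgeR (log2 FC 0.02 to 1.04), and 3 were lower on days 6 and 12 than on day 18 in the ovary, against 5.76% of all genes. IFIT1 had 3.11 to 17.3 CPM in the ovary on days 6 and 12, and 280.1, 8.96 and 36.1 CPM on day 18. MX1 had 17.8 to 65.2 CPM, and 532, 41.5 and 49.9 CPM. For both genes ovary library 1 of day 18 was the high one. Library 2 lay within the range of days 6 and 12 for both genes, and library 3 did so for MX1.

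The dual oxidase DUOX1 and its maturation factor DUOXA1, which together release hydrogen peroxide, were both in the endometrium-down set. In the ovary DUOX1 had 19.9, 37.1 and 38.3 CPM on day 6 and 8.48, 58.6, 70.7 and 61.9 CPM on day 12 against 17.0, 8.68 and 8.44 CPM on day 18, and DUOXA1 had 14.2, 32.5 and 36.9 CPM and 3.02, 97.4, 134 and 75.9 CPM against 7.81, 0.747 and 2.04 CPM. Library 1 of day 12 was low for both, and neither passed the test in the ovary (adjusted p = 0.0661 and 0.0525). In the endometrium neither was called (log2 FC 0.35 ± 0.29 and 0.24 ± 0.41), and DUOX1 was called lower in the oviduct (-1.45 ± 0.43, adjusted p = 0.0354). DUOX1 and DUOXA1 were picked out after their values were seen. Reads of neighbouring genes on opposite strands may not be separated, since the strand setting of the counting is not given in the sources used here.

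The rule did not use the level between the tissues, but the average over the 5 unused days takes in the days of opposite movement. It is therefore not a trait apart from the rule. On day 0 the endometrium-up set had a median of 12.2 CPM in the endometrium and 15.4 CPM in the ovary, and on day 9 it had 45.5 and 3.70 CPM. The endometrium-down set had 17.4 and 6.43 CPM on day 0 and 5.02 and 21.2 CPM on day 9. Over the 5 unused days, 79 of the 133 endometrium-up genes were higher in the endometrium and 20 higher in the ovary, against 30.3% and 35.3% of all genes. Of the 60 endometrium-down genes, 15 were higher in the endometrium and 37 higher in the ovary. CDS1 was higher in the endometrium by 4.22 ± 0.30 on the log2 scale and KRT8, a keratin of simple epithelia, by 5.97 ± 0.59, while KCNQ5 differed by 0.01 ± 0.46 (adjusted p = 0.995). ESM1, an endothelial proteoglycan, was an exception in the endometrium-up set with a lower level in the endometrium (-4.36 ± 0.66). KRT8 and ESM1 were chosen after their values were seen. KRT8 had 576 CPM in ovary library 1 of day 15 and at most 67.2 CPM in the other ovary libraries.

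Other genes of the pathways that act in these tissues were counted in the same comparison, by lists of steroid synthesis, cholesterol synthesis and uptake, steroid receptors, prostaglandins, extracellular matrix and cell division. Of all genes, 8.59% were called higher and 9.67% lower in the endometrium, 5.45% and 5.76% in the ovary, and 4.81% and 11.4% in the oviduct. In the endometrium the prostaglandin list had 1 gene higher on days 6 and 12 (HPGD, which inactivates prostaglandins) and 4 lower (PTGS1, PTGS2, PLA2G4A and PTGER2) of 12 tested. The same list in the ovary had 3 higher (PTGES, PTGES2 and SLCO2A1) and 2 lower (ALOX5 and PTGER4). The cholesterol list had 9 of 18 higher in the ovary, none called in the endometrium by edgeR, and 16 of 18 lower in the oviduct, and it held no member matched by symbol. The matrix list had 7 of 15 lower in the endometrium and 4 of 15 lower in the ovary. Steroid synthesis had 2 higher and 1 lower of 10 in the endometrium, and 0 of 14 called by edgeR in the ovary. This list had 21 genes, of which 14 were named in the table. STAR, HSD3B1, CYP19A1, HSD17B1, AKR1C1, FDX1 and POR were not matched by symbol, so these counts do not cover them. Steroid receptors had 4 of 10 higher in the endometrium and 0 of 11 called in the ovary, and cell division had 0 of 12 called in either.

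Sums of the leukocyte and theca markers reached higher values in the ovary on day 18 than on day 6, with ranges that overlapped. Sums of the other marker lists are not given for the ovary here. Of the leukocyte markers, 3 of 4 (PTPRC, CD68 and CD14) were in the table. Their summed level in the ovary was 52.5 to 66.2 CPM on day 6, 54.5 to 70.7 CPM on day 12 and 49.3 to 399 CPM on day 18, and 48.0 to 566 CPM on day 0 against 56.9 to 71.7 CPM on day 9. PTPRC and CD68 were called lower on days 6 and 12, as 41 of the 132 endometrium-up genes were, and none of the 3 was at 0. The summed theca markers (2 of 2) were 56.9 to 139 CPM on day 6 and 32.1 to 2107 CPM on day 18. In the endometrium the leukocyte sum was 21.7 to 43.5 CPM on days 6 and 12 and 33.4 to 51.7 CPM on day 18, and PECAM1, an endothelial marker, and DCN, a fibroblast marker, were called lower on days 6 and 12. The part of these cells in the members' changes was not tested.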

How the data were processed

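Per the methods, read starts were trimmed by the authors and the reads mapped to the pig genome with tophat2 and Ensembl annotation. The deposited table holds raw counts per Ensembl gene for 66 libraries, without normalization. The submitters' processing notes name featureCounts and edgeR, with no role or version. Every column was matched to a tissue and day by its name, and not to a single labelled sample. For day 12 the endometrium had 1 labelled sample more than columns. Some groups of days 12 and 15 hold more libraries than the gilts that the methods give for a day, and no source ties libraries to gilts, so some libraries may share a gilt and p-values measure only the spread between libraries. Of 74 pairs of libraries of 1 group, 0 were identical, and their chi-squared per degree of freedom was at least 10.8, where counting noise gives about 1.

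Members and gene lists were chosen with earlier results of these data known. CPM used library totals. Counts (totals 8962103 to 13442083) were tested with edgeR 4.0.16 in R 4.3.3 (TMM, filterByExpr by group, robust glmQLFit, glmQLFTest), 1 fit for each tissue and 1 for endometrium and ovary together, in the 48 libraries of days 3, 6, 12, 15 and 18. Of the 193 members, 191, 192 and 178 passed the filter in endometrium, ovary and oviduct. Adjusted p-values are Benjamini-Hochberg over all genes tested, called under 0.05. The script was tested on simulated data. Each SE was taken as the size of the log2 fold change divided by the root of its F statistic. The named genes were the first 12 of each set by the smaller of the absolute log2 ratios in endometrium and ovary, and every member in a gene list. Symbols came from a table that named 11804 genes. Alternatives were DESeq2 1.42.0, its size factors, no filter, all 7 days, each library left out, a replicate block, days 6 or 12 alone, and changes of the rule. Floors cover counting error only, while each SE also takes in the spread between libraries. No sequences were used here.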

Additional observations from a re-analysis of the deposited data

Results flagged for a closer look

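Among the named genes, 20 of 120 groups of 4 libraries held 1 library whose gap to the nearest other library was over 0.829 of the group's range. For normally distributed values chance gives about 1 in 20 groups, but CPM need not be so distributed, and the rate expected here is not known. Of the 20 groups, 6 had that library as endometrium library 2 of day 15. There SLC27A6 had 84.1 CPM (others 1.02 to 3.02), JPH4 1519 CPM (13.6 to 52.0), KCNQ5 8.54 CPM (0.339 to 0.590), SLC31A2 196 CPM (35.02 to 54.6), ENSSSCG00000012202 40.5 CPM (9.89 to 12.6) and L1CAM 5.20 CPM (10.9 to 11.7).

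In the ovary, JPH4 had 36.2 CPM in library 1 of day 12 (others 0.770 to 1.15), ENSSSCG00000012202 9.50 CPM in library 3 (6.98 to 7.19) and ENSSSCG00000013665 4.80 CPM in library 4 (0.342 to 0.487). On day 15, STRIP2 had 12.6 CPM in library 1 (4.86 to 5.88), ENSSSCG00000025714 33.7 CPM in library 2 (5.20 to 9.90), and ENSSSCG00000004520 23.7 CPM in library 3 (4.19 to 7.01). In library 4 of that day ENSSSCG00000024545 had 10.5 CPM (0.597 to 0.776) and SLCO2A1 33.4 CPM (14.8 to 17.1). In the oviduct, SLC31A2 had 13.2 CPM in library 1 of day 12 (10.3 to 10.5) and L1CAM 2.05 CPM in library 4 (5.02 to 5.51). On day 15, HPSE had 128 CPM (77.2 to 84.4) and SLCO2A1 1.44 CPM (5.97 to 6.74) in library 2, L1CAM 11.8 CPM in library 3 (1.78 to 3.30) and CA2 27.9 CPM in library 4 (15.3 to 16.6).

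The change between days 6 and 12 and day 18 differed between the endometrium and the ovary in 113 members (edgeR's quasi-likelihood test of the interaction). As the log2 FC in the endometrium minus that in the ovary, the values of the named genes of the endometrium-up set were 8.12 for SLC27A6, 5.56 for NPL, 10.59 for BDNF, 6.71 for JPH4, 4.31 for CDS1, 2.14 for STRIP2, 6.05 for KCNQ5, 4.91 for NCF1, 4.85 for SLC31A2 and 2.60 for ENSSSCG00000012202. In the endometrium-down set they were -3.82 for CA2, -6.72 for IL6ST, -8.79 for ENSSSCG00000024545, -3.96 for L1CAM, -9.23 for ENSSSCG00000013665, -2.99 for SLCO2A1, -2.58 for RPS6KA6, -4.65 for FAM167B and -6.73 for ENSSSCG00000025714. The fitted values of BDNF and ENSSSCG00000013665 depend on the prior count of the fit, since their low groups lay near or under 3 counts, and are neither sizes nor bounds.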

How the results depend on the processing

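The number of members followed the rule: 384 with 0.1 CPM added and 74 with 5 CPM, 661 at a ratio of 1.5 and 12 at a ratio of 4. In the ovary, the 54 calls between days 6 and 12 and day 18 became 29 with day 6 alone, 0 with day 12 alone, 89 with DESeq2 and 115 without the libraries numbered 1 of days 12 and 15, a choice made after seeing the data. The oviduct's 13 became 0 with day 6 alone, 8 without the filter and 21 with DESeq2, and the 113 calls for the difference between tissues became 65 with day 12 alone. Between days 12 and 15, the 0 calls became 23 (DESeq2) and 16 (all 7 days) in the endometrium, 24 (DESeq2) and 25 (libraries numbered 1 left out) in the ovary, and 1 (DESeq2) in the oviduct. The cause of these shifts was not tested.

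With 1 library left out, calls between days 6 and 12 and day 18 ranged from 40 to 98 in the endometrium, 0 to 107 in the ovary, 0 to 15 in the oviduct and 75 to 143 for the difference. From day 3 to 6 they were 40 to 55 in the endometrium (65 with every library) and 0 in the others, and from day 12 to 15 they were 0 to 85, 0 to 37 and 0 to 4. For the level between tissues, 89 to 99 members of both sets together were called higher in the endometrium, and those higher in the ovary were not counted. Members numbered 172 to 207. The lowest of these was without ovary library 1 of day 0.

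Of 15 same-numbered endometrium and ovary pairs, 10 correlated above 0.1 (-0.07 to 0.25), and 11 of the 15 endometrium libraries correlated best with their own number. The median r was 0.12, against -0.04 for 37 other pairs. Not every pair passed 0.1 and no source gives the gilt of a library, so the block was kept as an alternative, and whether the numbers mark gilts is not known. With the replicate block the ovary had 0 calls and the difference 74.

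The named genes that changed sign were SGMS2 in the endometrium (0.18 with day 6 alone, -0.71 to 0.58 with 1 library left out, the highest without day 18 library 1), ENSSSCG00000004520 there (-0.96 to 0.024, the highest without day 18 library 3), and in the ovary STRIP2 (0.44 with day 6 alone, -0.92 to 0.70, the highest without day 18 library 3), ENSSSCG00000009996 (0.057 with day 6 alone, -1.45 to 4.02, the highest without day 18 library 1) and HPSE (-0.12 with day 12 alone). Depth limits BDNF and ENSSSCG00000013665, whose low groups were near 3 counts.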
